A study of Homo sapiens with 4 samples.

Results

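The enzymes that write, oxidize and excise methylated cytosine were followed in SH-SY5Y cells depleted of LSD1. The group comprised 7 genes, the DNA methyltransferases DNMT1, DNMT3A and DNMT3B, the dioxygenases TET1, TET2 and TET3, and the thymine DNA glycosylase TDG. Every probe set whose platform annotation named 1 of these genes and no other was kept, which gave 15 of the 41091 probe sets and 7 of the 19775 genes named in this way. SH-SY5Y is a human neuroblastoma cell line of sympathetic origin. The siLSD1 group was transfected with a small interfering RNA (siRNA) against LSD1 and the siControl group with a control siRNA, with 2 arrays in each. The submitters describe separate transfections, all in this 1 cell line, and neither the time to harvest nor the siRNA sequences are stated in the sources used here. Levels are log2 signals on Affymetrix arrays after quantile normalization, and fold changes are siLSD1 over siControl.

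DNA methylation is laid down on cytosines of CpG dinucleotides. DNMT3A and DNMT3B add it to unmethylated DNA, whereas DNMT1 copies it to the new strand after replication. TET dioxygenases oxidize 5-methylcytosine, and TDG excises the oxidized bases 5-formylcytosine and 5-carboxylcytosine so that base excision repair can restore an unmethylated cytosine. LSD1, encoded by KDM1A, removes methyl groups from histone lysines, and in mouse embryonic stem cells it is known to demethylate the DNMT1 protein as well. The arrays measured transcripts, so neither protein nor DNA methylation was assayed.

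The siRNA target was lower on both siLSD1 arrays. KDM1A had a signal of 8.40 and 8.54 on the siLSD1 arrays, against 9.79 and 9.78 on the siControl arrays, which left 40.04% of the control level (95% interval of the log2 fold change from -1.70 to -0.94). In limma its unadjusted p was 6.4e-05, and its adjusted p of 0.994 over all 24655 tested probe sets did not pass 0.05. One array, siControl replicate 1, stood apart. Over the tested probe sets, its root mean square difference from each of the other arrays was 0.656 to 0.670 log2 units. The other arrays differed from each other by 0.479 to 0.544. Of 8 noradrenergic neuroblastoma markers with a probe set of their own, 7 were above the filter on low signals, and the linear signals of the list summed to 16287 and 15864 on the siLSD1 arrays and to 16501 and 16334 on the siControl arrays. Of 8 markers of leukocytes, fibroblasts, endothelium, epithelium, glia and liver, 4 were above it, and their list summed to 197 and 205 on the siLSD1 arrays and 197 and 171 on the siControl arrays. Fewer transcripts per cell and fewer expressing cells cannot be told apart in such bulk RNA.

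No DNMT, TET or TDG probe set passed the test. Of the 15, 12 had a mean signal at or above the filter level of 3.62 and were tested, and all 7 genes were represented among them. In limma 0 of the 12 had an adjusted p under 0.05, as was true of 0% of all tested probe sets, and the members' adjusted p lay between 0.994 and 0.999. At an unadjusted p under 0.05 there was 1 of 12 (8.33%), against 3.32% of all tested probe sets. Both siLSD1 arrays lay above both siControl arrays for 4 of the 12 (33.3%), against 16.1% of all tested probe sets, and below them for 2 (16.7%), against 16.1%. The groups overlapped for the other 6. Without siControl replicate 1 the same counts were 7 above and 3 below, against 36.5% and 30.9% of all tested probe sets. They were 4 above and 4 below without siControl replicate 2 (33.7% and 40.6% of all), 7 and 3 without siLSD1 replicate 1 (32.6% and 31.04%) and 4 and 4 without siLSD1 replicate 2 (28.1% and 30.9%). Their log2 fold changes had a median of 0.08, against -0.0043 over all tested probe sets. For 8 of the 12 (66.7%) the 95% interval lay within a 2-fold change in either direction, compared with 53.4% of all tested probe sets. In 8 of the 12, a gap between arrays of the same group exceeded the difference between the group means. No share over all tested probe sets is given beside this count.

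**Figure D1:**
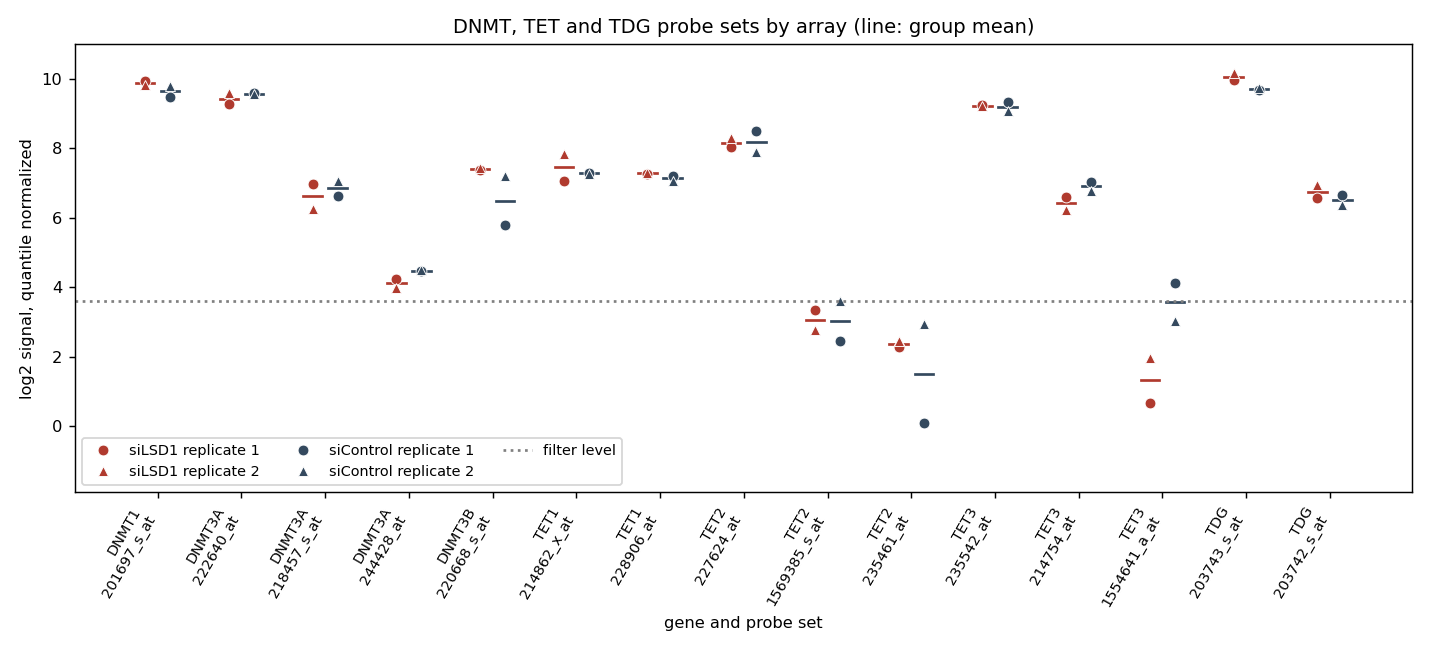
Log2 signal (vertical axis) of the 15 DNMT, TET and TDG probe sets (horizontal axis) on the 2 siLSD1 arrays (red, left) and the 2 siControl arrays (blue, right), with a line at each group mean and a dotted line at the filter level of 3.62. The siControl values of DNMT3B, 5.79 and 7.19, lie far apart, and 3 probe sets of TET2 and TET3 have means below the filter.

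For DNMT1, DNMT3B and TDG, 3 of the 7 genes, the brightest probe set read higher in both siLSD1 transfections than in either control. The same was true of 16.6% of all 11865 genes tested by their brightest probe set. A start region of each of the 3 genes is shown to set its CpG content beside the expression values. The sequences are the 250 bases before 1 RefSeq start in GRCh38.p14, kept for each gene while other starts were not examined. A window kept in this way need not be the main promoter of its gene. The bases run 5′ to 3′ on the gene's strand, with each CpG in capitals. They lie at chr19:10194954-10195203 on the minus strand for DNMT1, at chr20:32779602-32779851 on the plus strand for DNMT3B and at chr12:103965622-103965871 on the plus strand for TDG.
DNMT1: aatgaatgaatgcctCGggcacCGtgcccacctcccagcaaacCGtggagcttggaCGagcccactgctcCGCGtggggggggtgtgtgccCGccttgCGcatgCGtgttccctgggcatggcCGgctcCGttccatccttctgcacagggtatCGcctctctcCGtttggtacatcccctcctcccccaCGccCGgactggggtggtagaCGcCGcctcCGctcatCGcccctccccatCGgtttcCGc
DNMT3B: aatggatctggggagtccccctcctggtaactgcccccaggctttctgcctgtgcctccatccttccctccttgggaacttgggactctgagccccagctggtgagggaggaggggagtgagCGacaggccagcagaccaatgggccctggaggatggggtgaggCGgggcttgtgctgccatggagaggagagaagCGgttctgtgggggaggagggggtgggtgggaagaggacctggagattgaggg
TDG: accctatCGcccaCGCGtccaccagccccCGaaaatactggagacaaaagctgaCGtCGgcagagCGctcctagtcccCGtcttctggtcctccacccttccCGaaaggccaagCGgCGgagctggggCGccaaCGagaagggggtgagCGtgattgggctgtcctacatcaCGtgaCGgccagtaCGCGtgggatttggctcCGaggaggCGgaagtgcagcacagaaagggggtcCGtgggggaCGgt
The DNMT1 window held 21 CpG, that of TDG 22 and that of DNMT3B 3. These counts hold for the windows kept, and whether the DNMT3B window lies at the start used in these cells was not tested. All 7 genes matched a RefSeq promoter. In the others the count was 21 for DNMT3A, 9 for TET1, 10 for TET2 and 37 for TET3. Across the 27305 promoter windows of this length the median was 11, and 93.6% held at least 1 CpG. A window with at least as many CpG as that of TET3 was found for 3.87% of promoters, and with at least as many as that of DNMT3B for 76.4%. The E-box CACGTG, a palindrome that reads the same on both strands and holds a CpG of its own, occurred in the windows of TDG (1), TET2 (1) and TET3 (2), and in 6.49% of all promoter windows. The sequence GGGCGG, searched on both strands and also holding a CpG, occurred 3 times in the TET3 window, in none of the other 6 members' windows, and in 42.3% of all promoter windows. Among the 7 windows kept, those of the 3 genes higher on both siLSD1 arrays included CpG-rich ones and the one with the fewest CpG. None of these 3 differences passed the test, and a link between CpG count and expression was not tested.

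DNMT1, the maintenance methyltransferase, had a slightly higher mean signal after LSD1 siRNA, which did not pass the test. Its only probe set, 201697_s_at, had signals of 9.95 and 9.83 on the siLSD1 arrays, against 9.48 and 9.80 on the siControl arrays. The groups did not overlap, but siLSD1 replicate 2 and siControl replicate 2 were 0.03 log2 units apart. The group means were 9.89 ± 0.08 in siLSD1 and 9.64 ± 0.22 in siControl cells (SD, n = 2 each), a 1.19-fold difference with a 95% interval from 0.92-fold to 1.53-fold. In limma the unadjusted p was 0.158 and the adjusted p 0.994. The lowest of the 4 values came from siControl replicate 1, and the log2 fold change was 0.09 without that array in place of 0.25, and 0.40 without siControl replicate 2.

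DNMT3B, a de novo methyltransferase that is abundant in embryonic cells and needed at pericentromeric repeats, had the widest difference of the tested probe sets and also the least settled one. Its only probe set, 220668_s_at, had signals of 7.36 and 7.45 on the siLSD1 arrays, against 5.79 and 7.19 on the siControl arrays. The siLSD1 arrays were close together and above both control arrays, while the control arrays differed from each other by 1.40 log2 units. The means were 7.40 ± 0.06 in siLSD1 and 6.49 ± 0.99 in siControl cells (SD, n = 2 each). The ratio of 1.88 had a 95% interval from 0.92-fold to 3.87-fold, with an unadjusted p of 0.0766 and an adjusted p of 0.994 in limma. Its size depended on the control arrays. The log2 fold change was 0.91 with all arrays, 0.21 without siControl replicate 1 and 1.61 without siControl replicate 2, and the last of these had an adjusted p of 0.123 in limma, the smallest of any member under any setting tried. That fit had a single control array, which was assumed to vary like the siLSD1 arrays. The part of siControl replicate 1, the array that stood apart over all tested probe sets, in this difference was not tested beyond these values.

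DNMT3A, the other de novo methyltransferase and one that is expressed in neurons, had 3 tested probe sets, each with a lower mean in siLSD1 cells, although median centring of the arrays gave 0.018 and 0.0011 in place of -0.14 and -0.23 for the brighter ones. Median centring shifted the median of all tested probe sets by 0.16, and relative to that shift these values were -0.14 and -0.16. The brightest, 222640_at, had signals of 9.26 and 9.59 on the siLSD1 arrays, against 9.58 and 9.55 on the siControl arrays. Only siLSD1 replicate 1 was low, the groups overlapped, and the fold change was 0.91 (95% interval from 0.69 to 1.19). The second, 218457_s_at, read 6.97 and 6.25 on the siLSD1 arrays and 6.62 and 7.07 on the siControl arrays. Its groups overlapped as well, with a log2 fold change of -0.23 (95% interval from -1.02 to 0.56). The third, 244428_at, was dim, at 4.24 and 3.99 on the siLSD1 arrays and 4.47 and 4.49 on the siControl arrays. It was lower on both siLSD1 arrays, with a log2 fold change of -0.37 and a 95% interval from -1.30 to 0.56. Limma's adjusted p was 0.994 for each. The sign of the brightest probe set turned to 0.02 without siLSD1 replicate 1, and that of 218457_s_at to 0.13 without siLSD1 replicate 2, so that only 244428_at, at -0.24 to -0.49, was lower with each array left out in turn.

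Of 5 tested TET probe sets, 1 was above and 1 below both controls on both siLSD1 arrays, and 3 overlapped, where 16.1% of all tested probe sets lay above and 16.1% below. TET1, which carries a CXXC domain that binds unmethylated CpG, had a pair of probe sets of similar signal. Probe set 228906_at read 7.27 and 7.28 on the siLSD1 arrays, against 7.20 and 7.07 on the siControl arrays. Both siLSD1 values were above the control values, by a log2 fold change of 0.14 (95% interval from -0.43 to 0.70) that was 0.07 without siControl replicate 2 and 0.21 when siControl replicate 1 was left out. The other, 214862_x_at, read 7.05 and 7.84 on the siLSD1 arrays, against 7.30 and 7.26 on the siControl arrays. Here the siLSD1 arrays lay on either side of the controls, and the log2 fold change of 0.17 turned to -0.23 without siLSD1 replicate 2. Affymetrix marks with _x_at a probe set whose probes can match other sequences, so its value is uncertain.

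TET2, a dioxygenase without a CXXC domain of its own, did not separate the groups. Its brightest probe set, 227624_at, had signals of 8.02 and 8.30 on the siLSD1 arrays, against 8.49 and 7.89 on the siControl arrays. The siLSD1 values lay between the control values, and the fold change was 0.98 with a 95% interval from 0.64 to 1.51. The log2 fold change of -0.03 turned to 0.27 without siControl replicate 1. The other probe sets of TET2 had means below the filter and were not part of the test. Probe set 1569385_s_at read 3.35 and 2.78 on the siLSD1 arrays and 2.46 and 3.59 on the siControl arrays, and 235461_at read 2.29 and 2.47 on the siLSD1 arrays and 0.10 and 2.93 on the siControl arrays, both with overlapping groups.

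TET3, the dioxygenase that acts on the paternal genome in the mouse zygote and is also expressed in neurons, gave different answers by probe set. The brightest, 235542_at, had signals of 9.23 and 9.21 on the siLSD1 arrays, against 9.32 and 9.08 on the siControl arrays. The siLSD1 values lay between the control values, and the 1.02-fold difference had a 95% interval from 0.77-fold to 1.33-fold. Probe set 214754_at read 6.59 and 6.23 on the siLSD1 arrays, against 7.04 and 6.77 on the siControl arrays. It was lower on both siLSD1 arrays, at 0.71-fold with a 95% interval from 0.45-fold to 1.12-fold, an unadjusted p of 0.121 and an adjusted p of 0.994 in limma. Its log2 fold change of -0.49 was -0.31 without siLSD1 replicate 2, -0.36 without siControl replicate 1, -0.62 without siControl replicate 2 and -0.67 when siLSD1 replicate 1 was left out. The third probe set, 1554641_a_at, lay below the filter in its mean, at 0.69 and 1.97 on the siLSD1 arrays and 4.11 and 3.02 on the siControl arrays. Both siLSD1 values were the lower ones, but 3 of the 4 values were under the filter level, and in limma without a filter its adjusted p was 0.986. The difference between 235542_at and 214754_at was not tested.

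TDG, the glycosylase that follows the TET enzymes and also removes thymine from G-T mismatches, had the smallest p of the group. Its brightest probe set, 203743_s_at, had signals of 9.96 and 10.16 on the siLSD1 arrays, against 9.67 and 9.72 on the siControl arrays. Both siLSD1 arrays were above both control arrays, and the control arrays differed by 0.05 log2 units. The means were 10.06 ± 0.14 in siLSD1 and 9.70 ± 0.03 in siControl cells (SD, n = 2 each), a 1.29-fold difference with a 95% interval from 1.03-fold to 1.61-fold. The unadjusted p was 0.0294, and with an adjusted p of 0.994 in limma the difference did not pass over all tested probe sets. The log2 fold change of 0.37 was between 0.27 and 0.46 with each array left out in turn, and 0.34 without siControl replicate 1. The other probe set, 203742_s_at, read 6.57 and 6.93 on the siLSD1 arrays, against 6.66 and 6.36 on the siControl arrays. These groups overlapped, with a 1.18-fold difference and a 95% interval from 0.75-fold to 1.88-fold. Its log2 fold change of 0.24 ranged from 0.064 to 0.42 with each array left out in turn, and was lowest when siLSD1 replicate 2 (0.064) or siControl replicate 2 (0.095) was missing. RefSeq lists a pseudogene each of TDG, TET1 and DNMT3A, and whether such copies reach these probe sets was not tested.

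**Figure D2:**
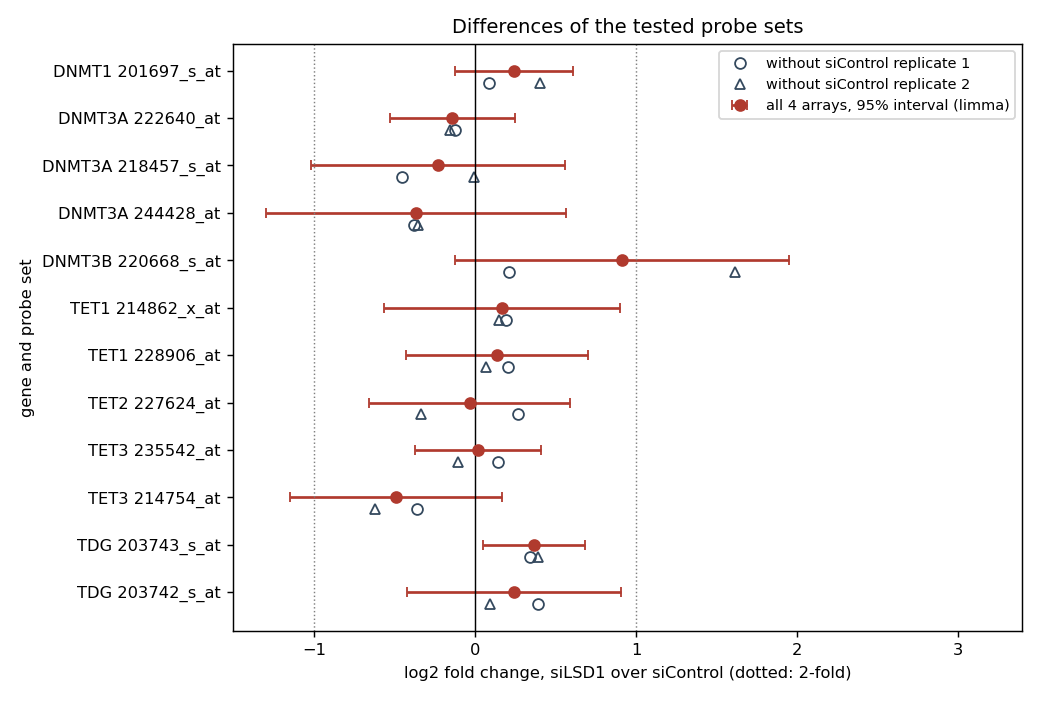
Log2 fold change, siLSD1 over siControl (horizontal axis), of the 12 tested probe sets (vertical axis) with limma's 95% interval (filled), and the same value without siControl replicate 1 (open circles) or replicate 2 (open triangles). The interval of TDG 203743_s_at, from 0.05 to 0.68, is the only one of the 12 that does not hold 0, and DNMT3B moves between 0.21 and 1.61.

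TDG had the highest mean signal of the members, and the genes with the most similar pattern over the 4 arrays were sought for it among all 11865 genes tested by their brightest probe set. They were UBE2D4, a ubiquitin-conjugating enzyme, GINS3, a subunit of the replicative helicase complex, and IGSF3, a membrane protein of the immunoglobulin superfamily. After each gene was centred on its own mean, their root mean square differences from TDG were 0.0154, 0.0159 and 0.0162 log2 units. As these genes were chosen on the same 4 arrays, their log2 fold changes had to lie near that of TDG. The values were 0.34 for UBE2D4, 0.38 for GINS3 and 0.39 for IGSF3. As many as 393 genes lay within 0.1 log2 units of TDG, so over 4 arrays this pattern was shared by many.

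The wider DNA methylation machinery gave no call either. Of 99 genes in 7 lists, 69 were tested by their brightest probe set. In limma 0 passed an adjusted p of 0.05, as was true of 0% of the 11865 genes, and 1 (1.45%) had an unadjusted p under 0.05, against 3.45% of all genes tested. A higher mean in siLSD1 cells was found for 34 and a lower mean for 35, with a median log2 fold change of -0.0015, against 0.0068 over all genes tested. Both siLSD1 arrays lay above both siControl arrays for 9 of the 69 (13.04%), against 16.6% of all genes tested, and below them for 6 (8.70%), against 15.1%. The 7 DNMT, TET and TDG genes by the same measure had a median of 0.17, with 3 above, 0 below and 4 overlapping. All named values in the lists that follow are of genes with the highest signals of their list.

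Genes of methylation maintenance and targeting, taken broadly, numbered 9 with a higher and 6 with a lower mean, with a median log2 fold change of 0.0085. UHRF1, which recruits DNMT1 to hemimethylated DNA, had signals of 10.68 and 10.86 on the siLSD1 arrays and 10.76 and 10.65 on the siControl arrays. PCNA, the replication clamp that DNMT1 binds, had a log2 fold change of -0.04, and TRIM28, a corepressor that directs methylation to retroelements and imprinted regions, of 0.05. Among 6 readers of methylated CpG, 4 had a higher and 2 a lower mean, with a median of 0.11. Their brightest members were ZBTB33, also known as Kaiso (-0.05), MBD1 (-0.02) and MBD2 (0.11), and the groups overlapped in each.

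Genes of active demethylation and base excision repair, among them other glycosylases and GADD45 genes, numbered 7 with a higher and 5 with a lower mean, with a median of 0.04. APEX1, the endonuclease that cuts at the abasic site left by TDG, had a log2 fold change of -0.08, and PARP1, a sensor of strand breaks, of 0.20. UNG, the uracil glycosylase, read 9.13 and 9.48 on the siLSD1 arrays and 8.60 and 9.22 on the siControl arrays, with its lowest value on siControl replicate 1. Among 10 TET partners and enzymes around the TET cosubstrate 2-oxoglutarate, 4 had a higher and 6 a lower mean, with a median of -0.0082. IDH1 and IDH2, which make 2-oxoglutarate, had log2 fold changes of -0.02 and -0.15, and CXXC5, a CXXC protein that binds TET2, of -0.01.

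Genes of methyl donor metabolism had small differences. Of 12 tested, 5 had a higher and 7 a lower mean, with a median log2 fold change of -0.04. MAT2A, which makes the methyl donor S-adenosylmethionine, had a log2 fold change of 0.05, its regulatory partner MAT2B of -0.06 and the folate enzyme MTHFD2 of -0.05.

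Among genes whose silencing or allelic expression depends on DNA methylation, none of those bright enough to be tested passed the test. Of 15 germline genes, only 3 were bright enough, so the test says little of silenced ones. PRAME, a tumour antigen, read 10.69 and 10.48 on the siLSD1 arrays and 10.58 and 10.60 on the siControl arrays. RPL10L, a retrogene copy of a ribosomal protein gene whose probes may match its relatives, had a log2 fold change of -0.40, and MAGEA1, from an _x_at probe set of a multigene family, of 0.18. Of 11 imprinted genes, 4 had a higher and 7 a lower mean, with a median of -0.03 and a range from -0.57 to 0.62. Both siLSD1 arrays lay above both siControl arrays for 3 of them, against 16.6% of all genes tested. They lay below for 2, against 15.1%, and the groups overlapped for 6. DLK1, a Notch ligand relative of the imprinted DLK1-MEG3 region, read 12.25 and 12.03 on the siLSD1 arrays, against 12.28 and 12.45 on the siControl arrays. It was the gene of the 69 with an unadjusted p under 0.05 (0.0257 in limma, adjusted p = 0.9996), at 0.85-fold. PEG10 and NNAT, the next brightest imprinted genes, had log2 fold changes of 0.10 and -0.0015 with overlapping groups.

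**Figure D3:**
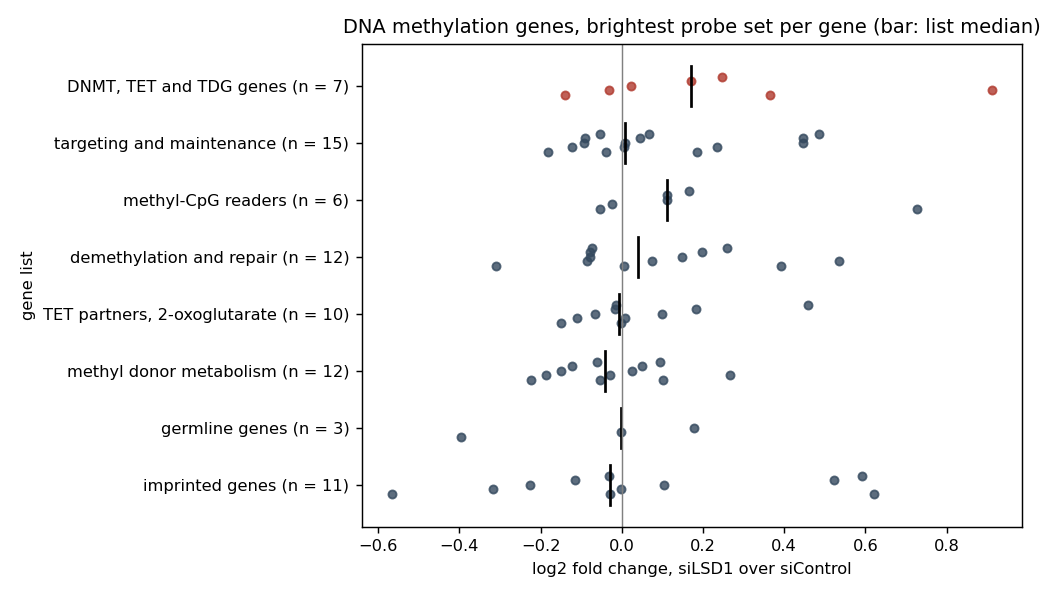
Log2 fold change, siLSD1 over siControl (horizontal axis), of each tested gene by its brightest probe set, for the 7 DNMT, TET and TDG genes (red) and the 7 lists of related genes (blue), with a bar at each list's median. The list medians lie between -0.04 and 0.11, and that of the 7 DNMT, TET and TDG genes is 0.17, with DNMT3B at 0.91.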

How the data were processed

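Per the labels' protocols, total RNA was column-purified and labelled with biotin. The authors deposited 1 log2 signal per probe set and array. The sources used here do not name the software, and base 2 was inferred because the antilogs, without the lowest and highest 2%, had a mean of 100.0 on each array. Array medians ranged over 0.27, above a tolerance of 0.25, so quantile normalization was applied. Of 54675 probe sets, 41091 had 1 gene symbol in the platform's annotation of 2016, and all 7 members' symbols were the same in RefSeq. Probe sets with a mean under the 40th percentile (3.62) were left out. Titles gave groups and replicate numbers. The test was that of limma 3.58.1 in R 4.3.3 (lmFit, eBayes with trend, two-sided, no replicate term, Benjamini-Hochberg over 24655 probe sets). Related genes were fitted by their brightest probe set above 4.12. With 2 arrays per group, an exact permutation test reaches no p under 0.333, and precision is limited by the number of arrays. Simulated data had 24655 independent probe sets, 200 of them changed, and arrays of equal spread, none standing apart as siControl replicate 1 did. In them 8.66% of 2-fold changes were called, 44.5% of 4-fold changes and 72.7% of 8-fold changes. Members and lists were chosen with earlier results of these data known. Named genes were KDM1A, all members, any list gene past the threshold, the 3 brightest of each list and the 3 most similar to the brightest member. Alternatives covered scaling, filter, probe set choice, variance trend, the replicate number as a block and each array left out.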

Additional observations from a re-analysis of the deposited data

How the results depend on the processing

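No DNMT, TET or TDG probe set and no list gene was called under any alternative: the deposited scaling, median centring, no filter, a filter at the 60th percentile, the brightest probe set per gene, no variance trend, the replicate block or leaving out 1 array. Over the whole table the calls were 0 to 5 higher and 0 to 1 lower when each array was left out (5 without siControl replicate 2, 1 without siLSD1 replicate 1), and 0 in each direction otherwise. With no adjustment, 457 were higher and 361 lower at p under 0.05 in limma with all arrays, 1084 and 147 under median centring, and 2024 and 812 without siControl replicate 2. With the replicate block there were 0 calls, and 612 higher and 392 lower at an unadjusted p under 0.05. Deviations of arrays with the same number had a correlation of -0.07, and as the labels name no shared batch the numbers were not taken as pairs. The sign held for 7 of the 12 tested member probe sets under each alternative that gave them a value: DNMT1, DNMT3A 244428_at, DNMT3B, both of TDG, TET1 228906_at and TET3 214754_at. The brightest probe set per gene gave values for 7 of the 12 and the filter at the 60th percentile for 11. Median centring moved the median of all tested probe sets by 0.16, and under it DNMT3A 222640_at turned to 0.018, DNMT3A 218457_s_at to 0.0011 and TET2 227624_at to 0.16. Relative to that shift they were -0.14, -0.16 and 0.0019. With 1 array left out, DNMT3A 222640_at ranged from -0.30 to 0.024, DNMT3A 218457_s_at from -0.59 to 0.13, TET1 214862_x_at from -0.23 to 0.57, TET2 227624_at from -0.34 to 0.27 and TET3 235542_at from -0.10 to 0.15. The cause of these turns was not tested. The log2 fold change of KDM1A stayed between -1.39 and -1.14, and 17 of 77 list medians moved by more than the spread between arrays. Some of these moved under median centring, whose shift of 0.16 was not taken out of the list medians. Signals near or under the filter level limit what the dim TET2 and TET3 probe sets can show.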
